A study of Homo sapiens with 6 samples.

Results

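DNA repair genes were compared between U-2 OS cells expressing S22A-progerin and U-2 OS cells expressing wt-progerin. The set was taken by symbol alone: RAD, FANC, XRCC, ERCC, BRCA, MSH or MLH followed by the code of that family, plus BARD1, BRIP1, MRE11, NBN, PALB2 and BLM. It held 30 of the 14884 genes that could be named and tested, each read by its probe set with the highest mean. Of 58 genes of these families that were looked for, 28 were not analysed here, among them the FANC and ERCC genes, BRCA1 and BRCA2. RAD21, its paralog RAD21L1, RADX and RADIL were left out.

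U-2 OS is a human osteosarcoma line, and progerin is the truncated lamin A of Hutchinson-Gilford progeria. In the 3 S22A-progerin arrays the cells carried a retroviral vector for progerin with a serine-to-alanine change, and in the 3 wt-progerin arrays a retroviral vector for progerin without it. All cells were under puromycin at 5 µg/ml for 3 days and gave total RNA 4 days after infection, and each group had 3 independent replicates. The promoter of the vector and the number of clones are not given in the labels, and no cells free of progerin were analysed here, so no value tells which group departs from the parent line.

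DNA repair is divided by the kind of lesion. Homologous recombination copies a sister chromatid to mend double-strand breaks and damaged forks in S and G2 phase, end joining ligates broken ends throughout the cycle, and the Fanconi pathway opens cross-linked DNA for recombination. Mismatch repair corrects replication errors, and excision repair removes damaged bases or bulky adducts. Many recombination and Fanconi genes are known targets of E2F factors and are transcribed mostly in cycling cells.

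The deposited values were log2 intensities, and every difference is S22A-progerin minus wt-progerin on that scale. A gene was called when its limma p-value, adjusted over all 14884 genes, was under 0.05. Array medians over 53617 probe sets ran from 6.04 to 6.09. Across genes, arrays correlated at 0.994 to 0.996 within S22A-progerin, 0.996 to 0.997 within wt-progerin and 0.983 to 0.985 between the groups. S22A-progerin replicate 3 stood apart from its group on the second principal component, which held 11.1% of the variance, and its effect is given with the counts. Of 10 mesenchymal and osteoblast markers, 4 were measured. Vimentin (VIM) read 10.83 ± 0.0193 in S22A-progerin and 10.89 ± 0.0241 in wt-progerin (SD, n = 3). RUNX2, the osteoblast factor, was called lower, at 8.03 ± 0.147 in S22A-progerin and 8.77 ± 0.0682 in wt-progerin, as was THY1 (-0.32), and osteopontin (SPP1) was called higher (1.18). Of 5 measured epithelial markers KRT18 was called higher (0.51), and of 4 measured leukocyte markers CD68, a lysosomal protein of macrophages and other cells, was (1.48). The part of these markers in the repair results was not tested.

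Repair gene transcripts were mostly lower in S22A-progerin cells. Of the 30 genes, 14 fell, 1 rose and 15 did not pass, where 14.6% of all tested genes fell and 10.8% rose. The falls were led by RAD51AP1, BARD1, BRIP1 and RAD54L of recombination and cross-link repair, at 1.58-fold to 1.70-fold. The rise was in MLH3, a mismatch repair gene, at 1.19-fold. Over all 30 genes the median difference was -0.19, against -0.00367 over all tested genes. Of the 30 differences 26 were negative, as were 7567 of the 14884 over all tested genes. These are bulk RNA values, in which fewer cells in a cycle phase and less RNA per cell cannot be told apart.

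In 21 of the 30 genes every S22A-progerin array was below every wt-progerin array, which held for 23.6% of all tested genes. In 2 genes every S22A-progerin array was above, against 18.5% of all genes, and in 7 the groups overlapped. The background differed with signal: of the 4961 genes in the top tertile by mean signal 25.6% fell, and 24 of the 30 repair genes lay there, of which 12 fell and 1 rose. The median difference was -0.19 in those 24 and -0.05 in the whole tertile. The count of 14 falls was 9, 8 and 7 without wt-progerin replicate 1, 2 or 3. It was 11, 10 and 15 without S22A-progerin replicate 1, 2 or 3. The count of rises was 0 without wt-progerin replicate 1 or 3 or without S22A-progerin replicate 1 or 2, and 2 without S22A-progerin replicate 3. Over all tested genes, falls ran from 1514 to 2048 and rises from 1126 to 1553 in these fits, against 2176 and 1601 with all arrays. BARD1, RAD51AP1, BRIP1, RAD54L, MRE11, RAD54B and MSH6 kept their call in all 15 alternative fits.

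**Figure D1:**
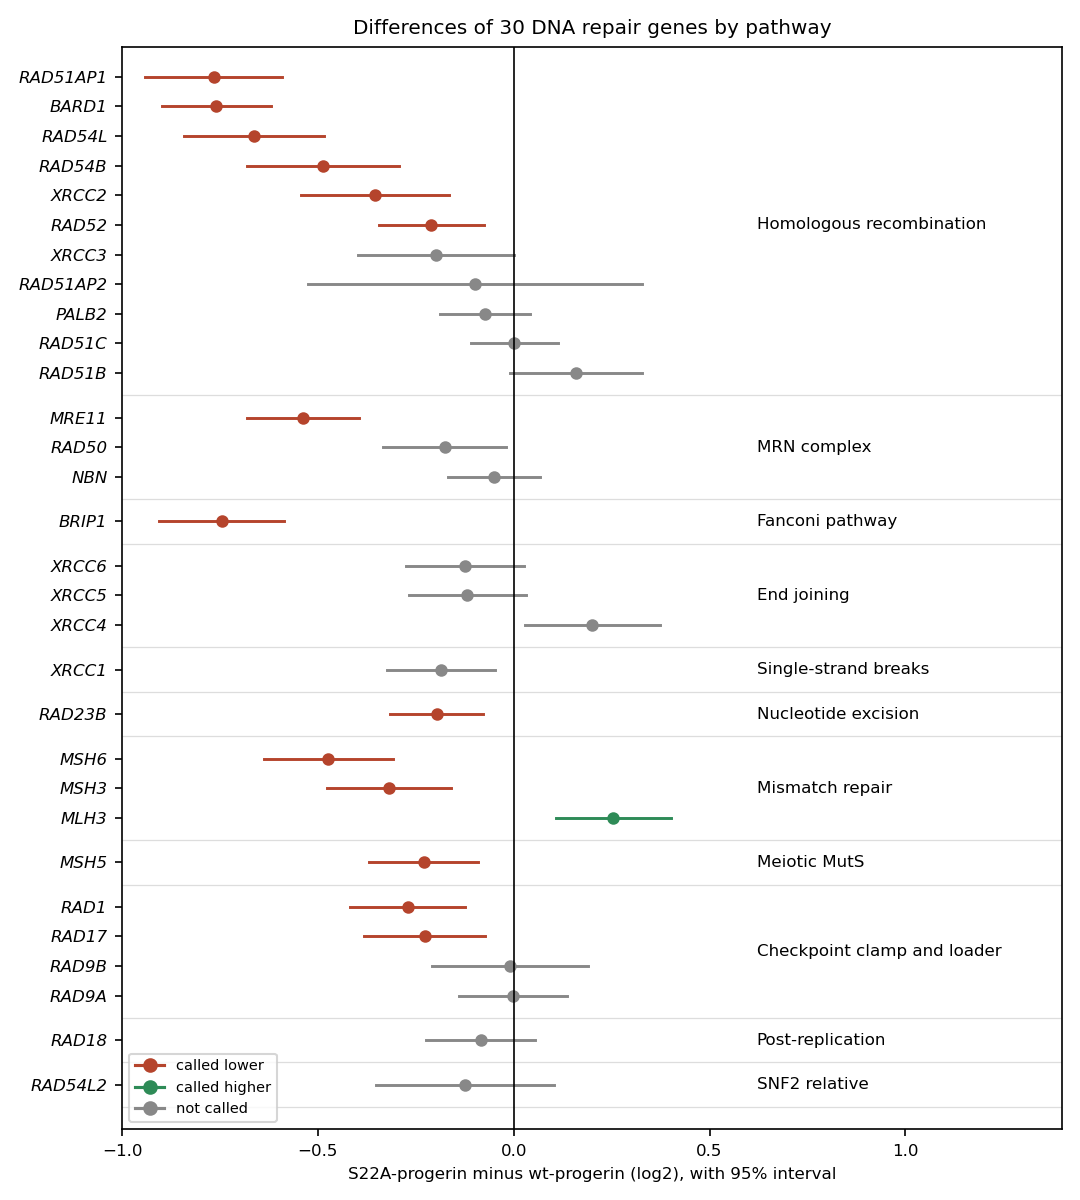
Difference between S22A-progerin and wt-progerin (log2, horizontal axis) for 30 DNA repair genes grouped by pathway, with the 95% interval of the limma fit (n = 3 arrays per group). The 14 genes called lower lie left of 0, MLH3 is called higher, and the other 15 were not called.

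Promoter sequences are shown for the 3 genes with the smallest p and for MLH3, the gene that rose, since factors that act on many cell cycle genes bind such stretches. RefSeq promoters of build GRCh38.p14 matched 27 of the 30 genes, and XRCC5, RAD54B and NBN had no entry. The 250 bases before the annotated start are given 5′ to 3′ on the gene's strand. They are chr2:214809684-214809933, minus strand, for BARD1, chr17:61863529-61863778, minus strand, for BRIP1, chr12:4538640-4538889, plus strand, for RAD51AP1, and chr14:75051468-75051717, minus strand, for MLH3. Capitals mark, on either strand, an E2F core (TTCCCGC and also TTGGCGC and also TTCGCGC and also TTGCCGC), the cell cycle homology region (TTTGAA and also TTCGAA) and the CCAAT box bound by NF-Y.
BARD1: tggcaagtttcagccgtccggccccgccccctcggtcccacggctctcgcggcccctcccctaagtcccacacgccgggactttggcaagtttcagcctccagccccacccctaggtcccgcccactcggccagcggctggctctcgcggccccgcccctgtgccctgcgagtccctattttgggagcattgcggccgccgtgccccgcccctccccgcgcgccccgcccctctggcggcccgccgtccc
BRIP1: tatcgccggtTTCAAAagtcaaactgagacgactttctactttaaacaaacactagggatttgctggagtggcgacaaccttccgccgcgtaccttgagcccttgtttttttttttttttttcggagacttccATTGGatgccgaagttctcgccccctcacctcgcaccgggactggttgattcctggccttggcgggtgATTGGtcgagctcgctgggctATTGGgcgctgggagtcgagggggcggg
RAD51AP1: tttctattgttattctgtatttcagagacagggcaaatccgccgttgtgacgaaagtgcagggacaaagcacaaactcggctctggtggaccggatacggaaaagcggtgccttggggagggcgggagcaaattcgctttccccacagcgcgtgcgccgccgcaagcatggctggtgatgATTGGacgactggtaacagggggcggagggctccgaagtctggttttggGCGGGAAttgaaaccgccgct
MLH3: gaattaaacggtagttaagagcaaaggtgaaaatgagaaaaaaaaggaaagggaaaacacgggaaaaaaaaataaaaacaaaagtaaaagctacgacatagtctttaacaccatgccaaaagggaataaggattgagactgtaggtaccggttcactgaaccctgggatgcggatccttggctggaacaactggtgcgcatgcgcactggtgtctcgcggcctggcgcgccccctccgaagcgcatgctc

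BARD1 and MLH3 held none of these letters in this window, RAD51AP1 held an E2F core and a CCAAT box, and BRIP1 held 1 homology region and 3 CCAAT boxes. Of the 13 promoters of genes that fell, 8 held an E2F core, and of the 13 of genes not called, 2 did, RAD9A and XRCC1. The share over all 10749 measured genes with an entry was 17.7%, and those genes were not matched to the repair genes by signal. Of the 8, RAD51AP1, RAD54L and MSH6 kept their call in every alternative fit, and MSH3, RAD52, RAD23B, MSH5 and RAD1 lost it in some. BARD1, BRIP1 and MRE11 kept their call and held no core, and XRCC2 and RAD17 lost theirs in some fits and held none. XRCC1 passed in 5 of the 15 alternative fits, so these counts depend on calls near the threshold. Genes that fell had more promoter windows each, 1.69 on average, than those not called, at 1.15, and all genes, at 1.38. A gene counted as a match when any of its windows held the letters. Of the 8 fallen genes with a core, RAD54L and RAD52 had 2 windows, RAD23B 3 and MSH6 4, and the rest 1. With 1 more T required before the core, MSH3 alone among the 27 matched, against 4.59% of all genes, and the shorter core was searched after that result was seen. The CCAAT box stood in 8 of the 13 promoters of fallen genes and in 7 of the 13 not called, against 39.8% of all genes. The homology region stood in 3 and in 2 of them, against 15.0% of all genes. A match shows the letters only, not that a factor binds.

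The stretch around the E2F core nearest the start is given for the 8 fallen genes that held one, with up to 12 bases on either side and the core in capitals as it reads on the gene's strand. The stretches of RAD9A and XRCC1, which held a core but were not called, are not shown. The core began 21 bases before the start in RAD51AP1, 36 in MSH6, 49 in RAD54L and 103 in MSH3, and 194 to 244 bases before it in MSH5, RAD23B, RAD52 and RAD1. The positions are chr12:4538857-4538887 (RAD51AP1, plus strand), chr1:46247627-46247657 (RAD54L, plus strand), chr2:47783905-47783935 (MSH6, plus strand), chr5:80654537-80654567 (MSH3, plus strand), chr5:34915730-34915754 (RAD1, minus strand), chr9:107283066-107283096 (RAD23B, plus strand), chr6:31739799-31739829 (MSH5, plus strand) and chr12:949910-949940 (RAD52, minus strand).
RAD51AP1: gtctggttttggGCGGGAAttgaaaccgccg
RAD54L: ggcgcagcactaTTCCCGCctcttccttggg
MSH6: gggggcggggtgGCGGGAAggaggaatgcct
MSH3: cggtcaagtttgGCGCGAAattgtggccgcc
RAD1: tcttggTTGCCGCcatcttgcctcg
RAD23B: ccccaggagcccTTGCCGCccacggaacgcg
MSH5: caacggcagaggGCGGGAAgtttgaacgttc
RAD52: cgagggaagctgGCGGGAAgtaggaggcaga

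Homologous recombination held 11 genes, of which 6 fell, none rose and 5 did not pass (median -0.21), where 14.6% of all tested genes fell. RAD51AP1, which promotes the pairing of DNA strands, read 8.47, 8.29 and 8.34 in S22A-progerin and 9.07, 9.10 and 9.24 in wt-progerin. It fell by 0.77 (SE 0.0743, 95% interval -0.94 to -0.59, adjusted p = 4.65e-04). The groups did not overlap, and only 1.37% of tested genes lay lower by difference.
BARD1, the ubiquitin ligase partner of BRCA1, read 8.26, 8.11 and 8.24 in S22A-progerin and 8.96, 8.95 and 8.99 in wt-progerin. It fell by 0.76 (SE 0.0589, adjusted p = 1.91e-04), and its wt-progerin arrays lay within 0.04 of each other. RAD54L, a DNA translocase of the SNF2 family that acts in strand exchange, read 8.50, 8.30 and 8.25 in S22A-progerin and 9.01, 9.04 and 8.99 in wt-progerin. It fell by 0.66 (SE 0.0758, adjusted p = 9.63e-04). RAD54B, its paralog, read 7.72, 7.55 and 7.81 in S22A-progerin and 8.08, 8.23 and 8.21 in wt-progerin, and fell by 0.49 (SE 0.0823, adjusted p = 0.00531).

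XRCC2, XRCC3, RAD51B and RAD51C are subunits of complexes that assist strand exchange, and XRCC2 alone among them was called. XRCC2 read 9.09, 8.91 and 9.07 in S22A-progerin and 9.31, 9.31 and 9.51 in wt-progerin, and fell by 0.36 (SE 0.0803, adjusted p = 0.017). It did not pass without wt-progerin replicate 3 (adjusted p = 0.053) or without S22A-progerin replicate 2 (adjusted p = 0.0509). RAD51C, which sits with XRCC2 in one complex, averaged 10.53 in both groups, with a 95% interval of the difference from -0.11 to 0.11. RAD51B, a further subunit, read 6.51, 6.53 and 6.43 in S22A-progerin and 6.43, 6.21 and 6.35 in wt-progerin. Its difference of 0.16 did not pass (adjusted p = 0.156), and the groups touched at 6.43. XRCC3, the partner of RAD51C in a second complex, had a difference of -0.20 (adjusted p = 0.136).

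RAD52, a strand annealing factor, read 7.54, 7.46 and 7.54 in S22A-progerin and 7.77, 7.72 and 7.66 in wt-progerin. It fell by 0.21 (SE 0.0567, adjusted p = 0.0331), but did not pass without any 1 of wt-progerin replicates 1, 2 and 3 or S22A-progerin replicates 1 and 2 (adjusted p = 0.0582 to 0.116). PALB2, which bridges BRCA1 and BRCA2, had every S22A-progerin array (8.82 to 8.87) below every wt-progerin array (8.90 to 8.93), yet its difference of -0.07 did not pass (adjusted p = 0.328). RAD51AP2 read 3.31 to 3.73 in S22A-progerin and 3.41 to 4.01 in wt-progerin, near the bottom of the scale, and no detection call was used here.

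Of the MRN complex, which senses double-strand breaks and starts their resection, the nuclease MRE11 was called. It read 7.83, 7.78 and 7.91 in S22A-progerin and 8.31, 8.39 and 8.43 in wt-progerin, and fell by 0.54 (SE 0.061, 95% interval -0.68 to -0.39, adjusted p = 9.31e-04). RAD50, the coiled-coil ATPase of the complex, read 9.001, 8.91 and 9.12 in S22A-progerin and 9.14, 9.20 and 9.22 in wt-progerin. Its difference of -0.18 did not pass (adjusted p = 0.101), though it did without S22A-progerin replicate 3 (-0.23, adjusted p = 0.0384), with dim genes left out (0.0338) and with the trend and robust prior (0.0385). NBN, the subunit that recruits the ATM kinase, read 9.94, 9.99 and 9.98 in S22A-progerin and 10.00, 10.02 and 10.04 in wt-progerin, with a difference of -0.05 (95% interval -0.17 to 0.07, adjusted p = 0.521). Groups did not overlap in any of these genes.

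BRIP1, the helicase FANCJ that binds BRCA1, was the only gene of the symbol set filed under the Fanconi pathway that was measured. PALB2, RAD51C and XRCC2, of which XRCC2 alone was called, were filed under recombination only and are described there. Of 11 Fanconi genes outside the set, given below, 4 fell, where 14.6% of all tested genes fell. BRIP1 read 9.81, 9.82 and 10.01 in S22A-progerin and 10.60, 10.64 and 10.64 in wt-progerin, and fell by 0.75 (SE 0.0679, 95% interval -0.91 to -0.59, adjusted p = 3.60e-04). Every S22A-progerin array lay below every wt-progerin array, replicate 3 being the nearest.

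None of the 3 end joining genes passed. XRCC5 and XRCC6 encode the Ku subunits that cap broken ends. XRCC5 read 12.45, 12.41 and 12.29 in S22A-progerin and 12.47, 12.48 and 12.56 in wt-progerin (difference -0.12, 95% interval -0.27 to 0.03, adjusted p = 0.23). XRCC6 read 10.61, 10.57 and 10.42 in S22A-progerin and 10.66, 10.68 and 10.64 in wt-progerin (difference -0.12, adjusted p = 0.21). In both, S22A-progerin replicate 3 was the lowest array. XRCC4, the scaffold of the ligase, pointed the other way, at 9.71, 9.73 and 9.50 in S22A-progerin and 9.45, 9.42 and 9.47 in wt-progerin. Its difference of 0.20 did not pass (95% interval 0.03 to 0.37, adjusted p = 0.0891), but did without S22A-progerin replicate 3 (0.27, adjusted p = 0.0144). It also passed with dim genes left out (adjusted p = 0.0282), the trend and robust prior (0.0246) and array weights (0.0379).

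The mismatch repair genes moved in opposite directions. MSH6, which takes part in reading base mismatches, read 9.29, 9.16 and 9.16 in S22A-progerin and 9.58, 9.68 and 9.77 in wt-progerin, and fell by 0.47 (SE 0.0697, adjusted p = 0.00291). MSH3, which takes part in reading larger loops, read 9.24, 9.10 and 9.16 in S22A-progerin and 9.39, 9.54 and 9.53 in wt-progerin. It fell by 0.32 (SE 0.0669, adjusted p = 0.0127), but not past the threshold without wt-progerin replicate 2 (adjusted p = 0.0503) or 3 (adjusted p = 0.0525).
MLH3, a MutL protein that also acts in meiotic crossing over, read 8.44, 8.43 and 8.39 in S22A-progerin and 8.18, 8.25 and 8.07 in wt-progerin. It rose by 0.25 (SE 0.0624, 95% interval 0.11 to 0.40, adjusted p = 0.0233). The groups did not overlap, and the call ended without wt-progerin replicate 1 or 3 and without S22A-progerin replicate 1 or 2 (adjusted p = 0.0651 to 0.0812). MSH5, a meiotic MutS homolog, read 8.28, 8.25 and 8.40 in S22A-progerin and 8.54, 8.53 and 8.56 in wt-progerin, and fell by 0.23 (SE 0.0589, adjusted p = 0.0279). It did not pass without any 1 of wt-progerin replicates 1, 2 and 3 or S22A-progerin replicates 1 and 2 (adjusted p = 0.0721 to 0.0943). Its second probe set, read on the same arrays, was lower as well (-0.27). Whether the 2 probe sets read different transcripts was not tested, so the second is no independent support.

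RAD23B, which stabilises the damage sensor XPC in nucleotide excision repair, was the only gene of the symbol set measured in that pathway. The 4 measured genes of the pathway outside the set, given below, did not pass. RAD23B read 11.54, 11.46 and 11.51 in S22A-progerin and 11.69, 11.69 and 11.71 in wt-progerin, and fell by 0.20 (SE 0.0505, adjusted p = 0.0278). The call ended without wt-progerin replicate 1, 2 or 3 or S22A-progerin replicate 2 (adjusted p = 0.0754 to 0.0974). XRCC1, the scaffold of single-strand break repair, read 10.02, 9.97 and 10.10 in S22A-progerin and 10.18, 10.21 and 10.26 in wt-progerin. Its difference of -0.19 did not pass (adjusted p = 0.057), but did without S22A-progerin replicate 3 (-0.22, adjusted p = 0.0364). It also passed with array medians subtracted (adjusted p = 0.0369), dim genes left out (0.0149), the trend and robust prior (0.0084) and array weights (0.0361). The groups did not overlap in either gene.

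Of 4 checkpoint genes, 2 fell, where 14.6% of all tested genes fell. RAD1, a subunit of the clamp formed with RAD9 and HUS1 that activates ATR signalling, read 9.49, 9.40 and 9.31 in S22A-progerin and 9.69, 9.67 and 9.65 in wt-progerin. It fell by 0.27 (SE 0.0619, adjusted p = 0.0178), but did not pass without any 1 wt-progerin array (adjusted p = 0.0518 to 0.0645). RAD17, which loads the clamp, read 9.37, 9.42 and 9.27 in S22A-progerin and 9.53, 9.55 and 9.66 in wt-progerin. It fell by 0.23 (SE 0.0656, adjusted p = 0.0427). It did not pass without wt-progerin replicate 1, 2 or 3 or S22A-progerin replicate 1 or 3 (adjusted p = 0.0762 to 0.141), nor after a further quantile normalization (adjusted p = 0.0969).
RAD9A, the usual clamp partner of RAD1, read 8.54, 8.52 and 8.40 in S22A-progerin and 8.47, 8.52 and 8.48 in wt-progerin, so the groups overlapped (95% interval of the difference -0.14 to 0.13). Its paralog RAD9B read 4.63, 4.31 and 4.49 in S22A-progerin and 4.50, 4.45 and 4.50 in wt-progerin, which overlapped as well. RAD18, the ubiquitin ligase that starts lesion bypass, read 9.33, 9.26 and 9.41 in S22A-progerin and 9.43, 9.39 and 9.43 in wt-progerin (difference -0.08, 95% interval -0.22 to 0.05). RAD54L2, a SNF2 family relative that is better known as a steroid receptor cofactor, read 9.06, 8.92 and 9.29 in S22A-progerin and 9.22, 9.27 and 9.15 in wt-progerin (difference -0.12, 95% interval -0.35 to 0.10). Neither passed, and both had overlapping groups.

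**Figure D2:**
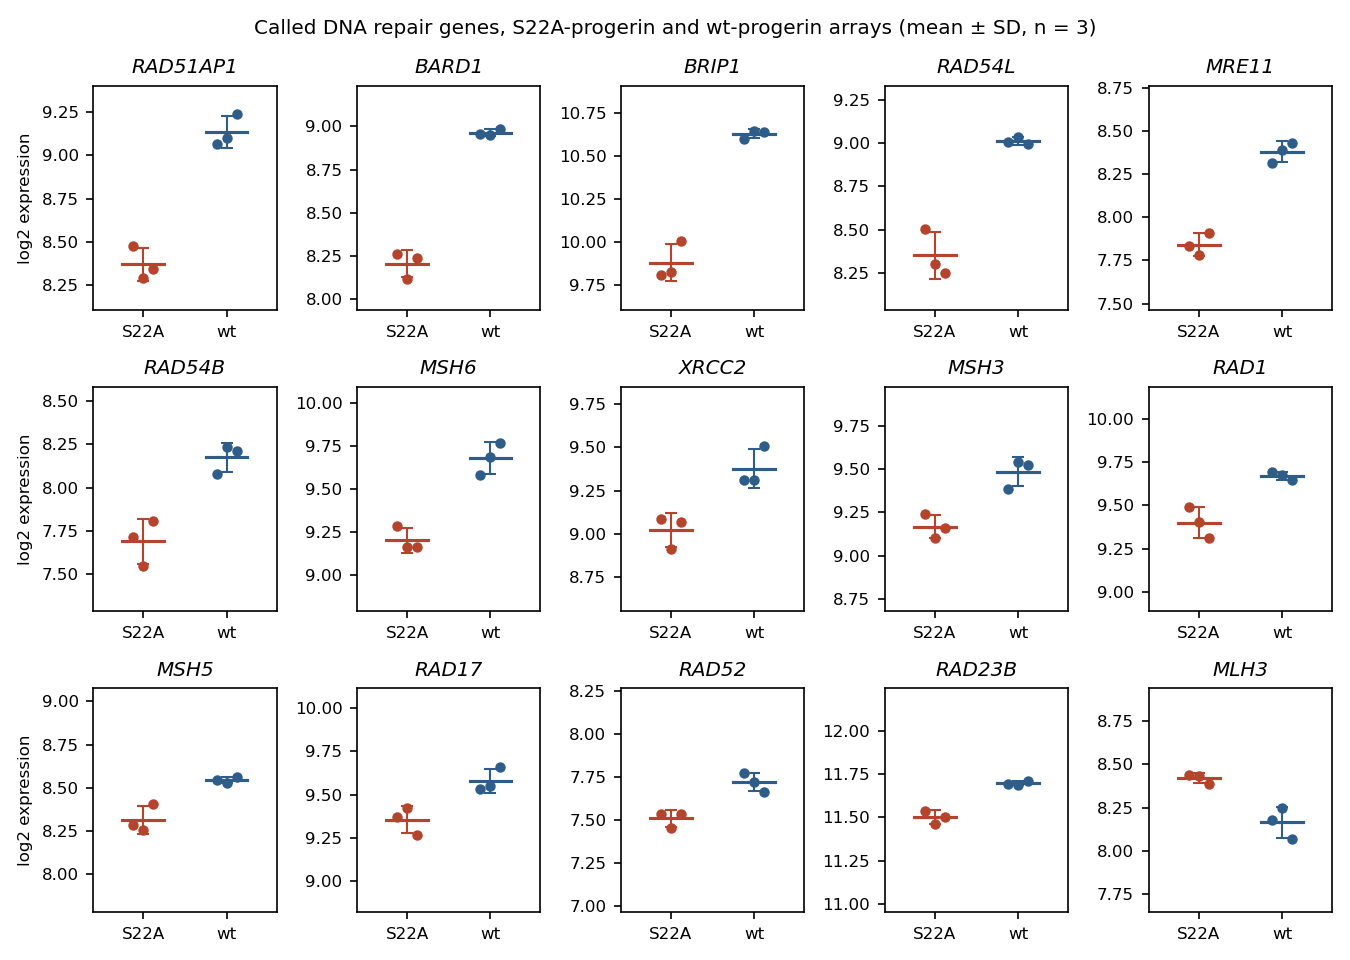
Log2 expression in each array (points) of the 15 called genes, S22A-progerin left and wt-progerin right in each panel, with the mean (line) and SD (error bar) of 3 arrays. Each vertical axis spans the same width around its own centre. The groups do not overlap in any of the 15 panels, which the choice of genes by adjusted p makes likely.

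Called genes were set against uncalled partners of the same complex in 5 pairs, and 2 pairs of called paralogs, MSH6 with MSH3 and RAD54L with RAD54B, were compared in the same way within each array. The size of such a gap has no meaning, since 2 probe sets differ in brightness. A gap that differs between groups shows unequal change in the 2 readings. It need not show unequal change in RNA, since RMA compresses folds of dim genes. The called gene read lower than its partner in the MRE11 pairs and in XRCC2 with RAD51C. It read higher in XRCC2 with RAD51B and in RAD1 with RAD9A. The part of signal level in the shifts was not tested. MRE11 minus RAD50 was -1.21 to -1.13 in S22A-progerin and -0.83 to -0.79 in wt-progerin, a shift of -0.36 (SE 0.0248). MRE11 minus NBN shifted by -0.49 (SE 0.0458), XRCC2 minus RAD51C by -0.36 (SE 0.0878), XRCC2 minus RAD51B by -0.51 (SE 0.116) and RAD1 minus RAD9A by -0.27 (SE 0.0288). MSH6 minus MSH3 shifted by -0.15 (SE 0.0331). In these 6 pairs the groups did not overlap. RAD54L minus RAD54B read 0.44 to 0.79 in S22A-progerin and 0.78 to 0.93 in wt-progerin, and overlapped. The 7 pairs were chosen with the differences known, so separate groups were likely in the 5 pairs of a called and an uncalled gene. The 2-sided exact permutation p was 0.10 in 6 pairs, the smallest that 3 against 3 arrays allow, and 0.20 in the last (0.117 and 0.20 adjusted by Benjamini-Hochberg).

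**Figure D3:**
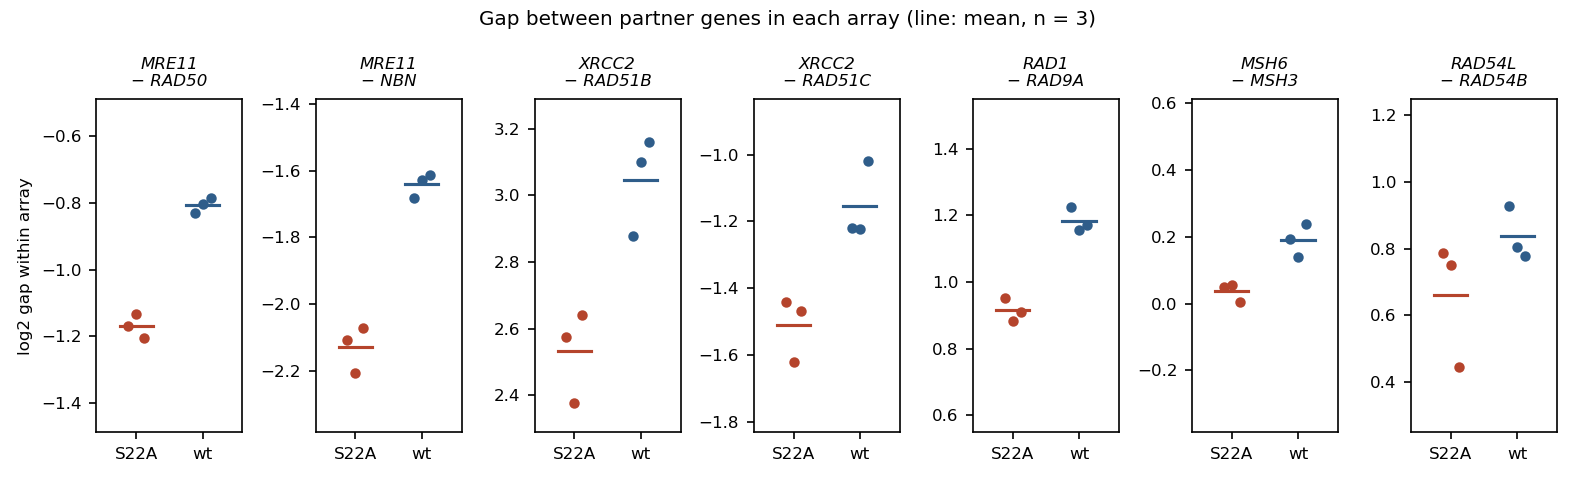
Gap on the log2 scale between 2 genes read in the same array, S22A-progerin left and wt-progerin right in each panel, for 7 pairs of complex partners or paralogs (points: arrays; lines: means of 3). The groups are apart in each of the 7 pairs but RAD54L minus RAD54B.

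The rest of each pathway was read from lists of 132 further repair genes, of which 84 were measured. Of these 36 fell, none rose and 48 did not pass, with a median of -0.15. Over all tested genes 14.6% fell and 10.8% rose, and in the top tertile by mean signal 25.6% fell. The median signal of the 84 stood at percentile 73.7 of all tested genes. Among 26 other genes of double-strand break repair and recombination, 12 fell. DNA2 (-0.65, adjusted p = 3.02e-04), a resection nuclease, GEN1 (-0.73), a Holliday junction resolvase, and EXO1 (-0.44), a resection and mismatch repair nuclease, had the smallest p. EME1, a nuclease partner of MUS81, is counted there by its brighter probe set (-0.56), while its other probe set went up (0.28, adjusted p = 0.0354), so its direction is not settled. Of 11 other Fanconi genes, 4 fell: UBE2T (-0.68), the conjugating enzyme of the pathway, USP1 (-0.52), which removes the ubiquitin, and the nucleases DCLRE1A (-0.44) and DCLRE1B (-0.28). DCLRE1A did not pass without wt-progerin replicate 1 or 3 or S22A-progerin replicate 2 (adjusted p = 0.0547 to 0.0677), nor DCLRE1B without wt-progerin replicate 1 or 2 (adjusted p = 0.061 and 0.0585).

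Of 14 damage signalling genes, 9 fell (median -0.32), where 14.6% of all tested genes fell. ETAA1 (-0.78, adjusted p = 5.01e-04), an activator of ATR at forks, TIMELESS (-0.54), a fork protection factor, and CLSPN (-0.45), the claspin adaptor for CHK1, had the smallest p. Of 16 base excision genes, 7 fell, led by NEIL3 (-0.82, adjusted p = 2.43e-04), a glycosylase expressed in cycling cells, OGG1 (-0.53), which removes oxidised guanine, and PARP2 (-0.51), a sensor of strand breaks. Of 7 other post-replication genes, 3 fell: HLTF (-0.41), a fork remodeller, PRIMPOL (-0.50), a repriming primase, and POLI (-0.29), a bypass polymerase. PRIMPOL did not pass without any 1 wt-progerin array (adjusted p = 0.0522 to 0.0673), nor POLI without any 1 array but S22A-progerin replicate 1 (adjusted p = 0.0506 to 0.111). Of 4 other mismatch repair genes, EXO1 and PCNA (-0.24, adjusted p = 0.0495) fell, and PCNA did not pass without any 1 of the 6 arrays (adjusted p = 0.0618 to 0.149). None of the 4 other end joining genes (-0.24 to -0.02) or 4 other nucleotide excision genes (-0.04 to 0.08) passed.

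Nearly all measured markers of the cycle fell in S22A-progerin, against 14 of the 30 repair genes. Over all tested genes 14.6% fell, and in the top tertile by mean signal 25.6%. Of 19 S-phase markers, 18 fell (median -0.42), and CCNE2 did not pass (-0.47, adjusted p = 0.0564), though it did without S22A-progerin replicate 1 (-0.62, adjusted p = 0.0141). CCNE2 also passed with array medians subtracted (adjusted p = 0.0453), dim genes left out (0.015) and the trend and robust prior (0.0126). The helicase genes CDC45 (-0.69), GINS1 (-0.55) and GINS2 (-0.59) had the smallest p. Of 16 G2 and M markers, all 16 fell (median -0.63), and the mitotic kinesins KIF23 (-0.85), KIF11 (-0.82) and KIF20A (-0.83) had the smallest p. The repair genes of recombination, the MRN complex and the Fanconi pathway had a median of -0.21 over 15 genes, and those of all other pathways -0.12 over 15. The differences of RAD51AP1, BARD1 and BRIP1 were below the range of the S-phase markers, -0.71 to -0.18, and within that of the G2 and M markers, -0.93 to -0.31. The part of the cycle in the repair result was not tested.

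**Figure D4:**
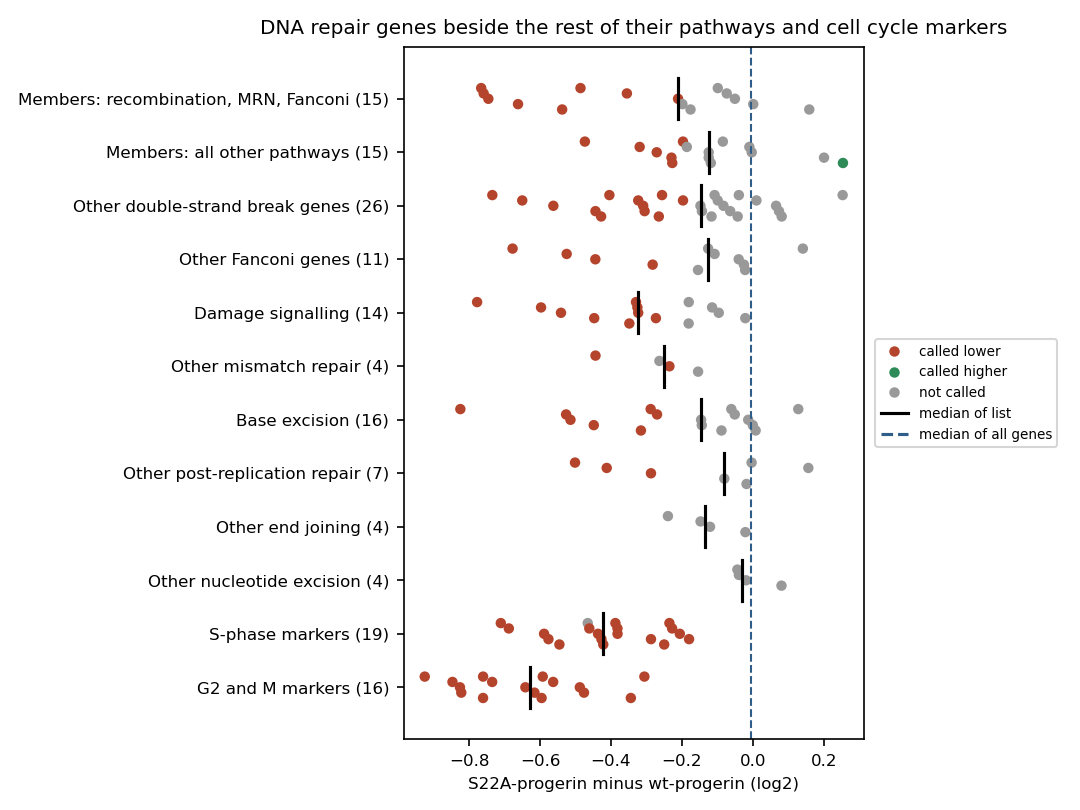
Difference between S22A-progerin and wt-progerin (log2, horizontal axis) of each gene (points) in the repair gene set, in further repair genes and in cell cycle markers, with the number measured in brackets. Vertical bars are list medians, from -0.63 in G2 and M markers to -0.03 in other nucleotide excision genes, and the dashed line is the median of all genes.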

How the data were processed

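The authors deposited values of 6 arrays on the log2 scale, and the submitters' processing notes name RMA and Affymetrix Expression Console. The software versions, settings and genome build are not given in the sources here. RMA corrects background, quantile normalizes arrays and summarises each probe set, which compresses folds of dim genes. No detection call was used. The number of arrays limits the precision, and a p-value reflects only the spread among the arrays at hand.

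Of 53617 probe sets, 16098 had 1 symbol in the platform annotation, 0 had several and 37519 were not named here. Where a gene had several (779 genes), the probe set with the highest mean was used. Genes were tested with limma 3.58.1 in R 4.3.3 (lmFit, eBayes, default priors, 2 groups, no covariate, no filter, two-sided) with Benjamini-Hochberg adjustment over 14884 genes. In each pathway the text gives array values for up to 4 members with the smallest p, for 1 of opposite sign and for BARD1, BRIP1, MRE11, RAD51AP1 and RAD54L. Per further list it names up to 3 called genes each way. Array values of XRCC2 and RAD52, and other genes named, were added after their values were seen. The members and lists were chosen with earlier results of these data known, so lists are described by counts and medians. Promoters came from RefSeq, GRCh38.p14.

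Same-numbered arrays of the 2 groups did not deviate together (r = -0.0195, -0.0549 and -0.00558 across genes), and the labels state no pairing, so no block was used. On simulated arrays of 14884 genes with the spreads of this comparison, the fit recovered 0 of 50 genes at a true difference of 0.2, 22 at 0.4, 38 at 0.6 and 42 at 0.8, with 2 false among 104 calls. Only 50 genes per size were changed there, against 3777 called in the data, so a call needed a smaller p than in the data. Alternatives were array weights, a second quantile normalization, centring on array medians, a filter on dim genes, the mean of a gene's probe sets, another variance prior, replicate blocks, each array left out and a threshold of 0.01.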

Additional observations from a re-analysis of the deposited data

How the results depend on the processing

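None of the 30 genes changed direction with a call under any of 15 alternatives. Without 1 array, falls among the 30 genes ran from 7 to 15 and rises from 0 to 2. Over all genes, falls then ran from 1514 to 2048 and rises from 1126 to 1553, against 2176 and 1601 with all arrays. By list the falls then ran from 0 to 2 in checkpoint, 1 to 2 in mismatch, 1 to 2 in MRN, 2 to 4 in other Fanconi, 1 to 2 in other mismatch, 0 to 1 in other end joining and 1 to 3 in other post-replication genes, and rises from 0 to 1 in mismatch and 0 to 1 in end joining genes. The cause was not tested, beyond that each such fit has 1 array fewer. At a threshold of 0.01, 1226 of all genes fell and 852 rose. Of the 30 repair genes 7 fell and 0 rose, with 1 mismatch fall, 0 mismatch rises and 0 checkpoint falls. That threshold left falls in 6 other double-strand break, 2 other Fanconi, 1 other mismatch and 1 other post-replication genes and in 11 S-phase markers. Repeated quantile normalization left 1 checkpoint and 1 other mismatch fall. Leaving out the dimmer 50% of genes kept 26 members and 7442 genes, and gave 2 MRN falls, 2 other end joining falls, 2 member rises, 1 end joining rise and 1 rise among other double-strand break genes. The trend and robust prior gave 2 MRN falls, 1 other end joining fall, 2 member rises, 1 end joining rise and 1 other double-strand break rise, and array weights gave 2 member rises and 1 end joining rise. Falls among the 30 genes were 15 with array medians subtracted, 16 without dim genes, 16 with the trend and robust prior and 15 with array weights, and XRCC1 was called lower in all 4. With the replicate block 2990 genes passed, against 3777, and 10 members fell and 1 rose; RAD52, RAD23B, MSH5 and RAD17 were not called, and 1 checkpoint and 1 other mismatch fall were left. The random replicate block left 14 member falls and 1 other mismatch fall. The 7 partner gaps kept their sign under each alternative that measured both genes. The samples share only a number, so this says nothing of pairing. RMA values carry no depth or detection limit. The simulation recovered none of the genes changed by 0.2, the size of several repair gene differences here. It changed far fewer genes than were called in the data, so it does not give the power of the fit at 0.2. In the data RAD23B (-0.20) and RAD52 (-0.21) were called.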

Other observations

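Symbols that resemble the repair families but were left out gave mixed values. RAD21, the cohesin subunit, was called lower at 7.79 ± 0.0267 in S22A-progerin and 8.11 ± 0.0300 in wt-progerin (SD, n = 3; difference -0.32, adjusted p = 0.00412). RADX, which acts at replication forks, was also called lower, at 6.27 ± 0.0236 in S22A-progerin and 6.71 ± 0.0777 in wt-progerin (difference -0.44, adjusted p = 0.00195). RAD21L1, the meiotic cohesin subunit, and RADIL, an adhesion factor, differed by -0.00035 and 0.04 and did not pass.

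Among the 14 repair genes that fell, S22A-progerin replicate 2 was the lowest of its group in 10, replicate 3 in 3 and replicate 1 in 1. How often each array was lowest over all tested genes was not counted. The order is therefore not shown to be particular to the repair genes.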
